A study of Mus musculus with 9 samples.

Results

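The genes described here mark leukocytes and inflammation in the mouse heart. They are 40 listed genes in 6 classes: general leukocyte and macrophage markers, resident macrophage and complement C1q genes, genes of recruited monocytes, neutrophils and lesion macrophages, antigen presentation genes, lymphocyte genes, and chemokines and cytokines. Members were found by gene name, which gave 38 of the 40 among 54660 gene identifiers. Cd74 and Itgam lie in loci that the deposited table joins with overlapping genes, so the counts of those 2 loci are given apart and enter no count of members. RNA was taken from whole hearts of mice aged 12 weeks, in 3 groups of 3 libraries. The groups were wild-type, heterozygous and homozygous for a frameshift allele of Rbm20 made by CRISPR/Cas, p.Q374Rfs, and carried no other stated allele or agent. Rbm20 encodes a splicing regulator of heart muscle. The labels do not say that each library is a separate mouse, nor how many lines were used, so p-values here speak of spread among libraries only.

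The healthy heart holds a standing population of macrophages. Those seeded early in life persist by self-renewal, take up debris and express Lyve1, Timd4, Folr2 and Mrc1, while monocytes that enter from blood carry the chemokine receptor Ccr2. After injury, neutrophils and Ccr2-positive monocytes arrive under the direction of chemokines such as Ccl2, and macrophages and dendritic cells present antigen on major histocompatibility complex (MHC) class II molecules. In whole-heart RNA, a lower level may come from fewer cells of a type or from less RNA per cell, and these cannot be told apart.

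The promoters of 2 MHC class II genes and 2 complement C1q genes are shown because these genes were high in the same libraries, as described further on; they were chosen after those values were seen. The windows run from 250 bases before to 50 bases after the gene start, from RefSeq on GRCm38.p6, whereas the deposited table uses GRCm39. Capitals mark CCAAT or its reverse complement in the MHC class II genes, the letters of the Y box that the factor NF-Y binds. In the C1q genes they mark GAGGAA or its reverse complement, the purine-rich core bound by PU.1, a factor that directs myeloid development.
H2-Aa, chr17:34287774-34288073, minus strand: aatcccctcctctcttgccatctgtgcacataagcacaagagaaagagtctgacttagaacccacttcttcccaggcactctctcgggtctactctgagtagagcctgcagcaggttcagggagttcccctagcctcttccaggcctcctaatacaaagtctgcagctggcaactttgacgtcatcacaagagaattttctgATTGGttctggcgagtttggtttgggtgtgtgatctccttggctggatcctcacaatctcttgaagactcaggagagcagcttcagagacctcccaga
H2-Eb1, chr17:34305617-34305916, plus strand: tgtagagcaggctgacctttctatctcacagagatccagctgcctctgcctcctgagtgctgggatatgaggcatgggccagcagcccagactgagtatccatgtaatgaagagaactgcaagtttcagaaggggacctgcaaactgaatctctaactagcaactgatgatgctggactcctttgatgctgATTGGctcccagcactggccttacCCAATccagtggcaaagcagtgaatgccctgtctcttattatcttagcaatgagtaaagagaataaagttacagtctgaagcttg
C1qb, chr4:136886151-136886450, minus strand: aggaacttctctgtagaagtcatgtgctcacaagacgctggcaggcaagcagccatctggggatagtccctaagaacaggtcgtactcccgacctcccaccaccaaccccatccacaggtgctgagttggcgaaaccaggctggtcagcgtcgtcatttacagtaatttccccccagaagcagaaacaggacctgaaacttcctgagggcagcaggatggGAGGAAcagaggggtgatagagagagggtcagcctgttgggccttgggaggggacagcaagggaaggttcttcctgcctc
C1qc, chr4:136892865-136893164, minus strand: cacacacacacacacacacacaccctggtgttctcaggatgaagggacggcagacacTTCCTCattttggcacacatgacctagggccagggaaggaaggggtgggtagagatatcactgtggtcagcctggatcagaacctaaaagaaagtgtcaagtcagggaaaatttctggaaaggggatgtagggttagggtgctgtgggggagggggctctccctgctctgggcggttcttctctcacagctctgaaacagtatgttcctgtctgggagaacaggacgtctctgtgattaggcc
The CCAAT letters began 48 bases before the start in H2-Aa, and 59 and 35 bases before it in H2-Eb1. GAGGAA began 30 bases before the start in C1qb and 193 bases before it in C1qc. On either strand, CCAAT stood in 37.4% of 32851 promoter windows of this length and in 12 of the 35 windows of the 31 matched members (34.3%). GAGGAA stood in 28.3% of all windows and in 16 of those 35 (45.7%). Each motif was marked only in its own 2 genes, so these windows do not compare the positions of the 2 motifs. Such matches are descriptions and do not show that a factor binds.

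The libraries held 296629818 to 323205269 inclusion reads, that is, reads assigned to exonic parts, of which 16.9 to 19.7% fell on mitochondrial genes. Levels are given as counts-per-million (CPM) of inclusion reads summed per gene. Rbm20 itself was at 104 to 132 CPM in wild-type, 68.4 to 90.2 CPM in heterozygous and 51.8 to 66.0 CPM in homozygous libraries, in the order of the genotype labels. Its difference in homozygous hearts was −0.98 ± 0.14 (log2, SE; adjusted p = 0.00428, edgeR). The counts do not test the deletion itself. Reads of the Y-linked gene Kdm5d were present in all 9 libraries, at 10.2 to 14.4 CPM.

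All 38 members passed the low-count filter. A gene was called where the Benjamini-Hochberg adjusted p of edgeR, taken over 22049 tested genes, was under 0.05. In homozygous against wild-type hearts, 0 of 38 members were called, beside 4.39% of all tested genes (1.87% higher and 2.52% lower). In heterozygous against wild-type hearts, 0 of 38 were called, beside 0.0% of all genes. In homozygous against heterozygous hearts, 0 of 38 were called, beside 0.948% (0.508% higher and 0.44% lower). At an unadjusted p under 0.05 there were 3, 1 and 2 members in these comparisons, beside 22.7%, 3.23% and 14.1% of all genes. DESeq2 also called 0 members in each, with 6, 1 and 3 at an unadjusted p under 0.05, while it called 2400, 20 and 851 genes over the table. The middle log2 fold change of the members was −0.13, −0.03 and −0.11, against −0.003, −0.0036 and 0.0019 over all genes. The 95% interval of the fold change stayed within 2-fold in either direction for 22, 22 and 23 of the 38 members, so for the others a change of that size lies inside the interval. In the homozygous comparison these others include all 3 MHC class II genes and all 5 lymphocyte genes.

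**Figure D1:**
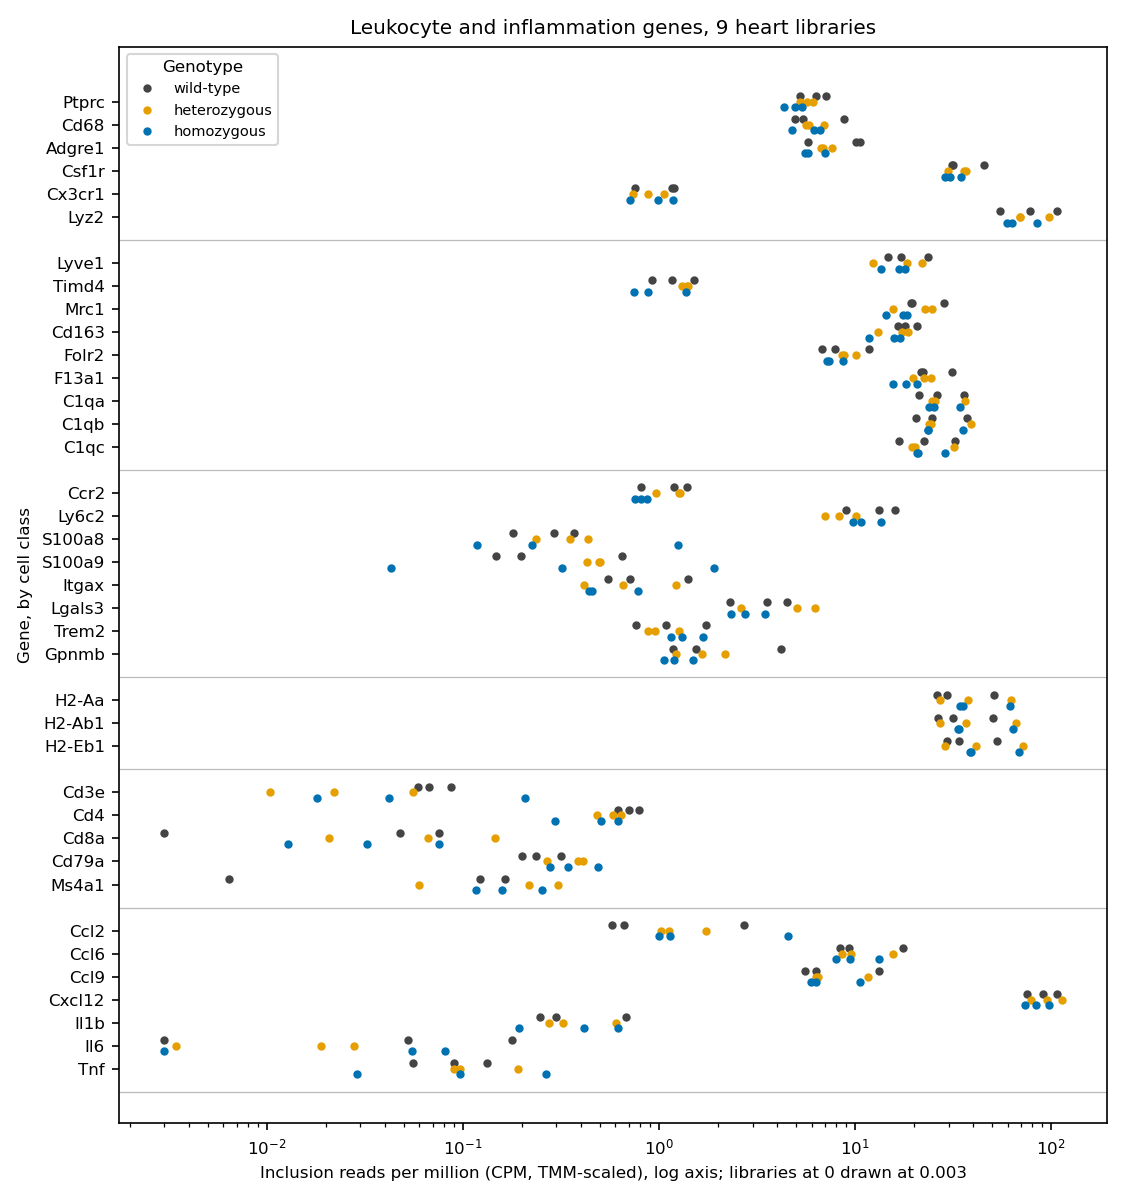
Level of each of the 38 members in the 9 libraries, in CPM on a log axis, grouped by class from top to bottom and coloured by genotype; each point is 1 library and libraries at 0 are drawn at 0.003. The genotypes lie across each other for nearly every gene, and levels run from under 0.1 CPM for T cell genes to 107 CPM for Lyz2 and 114 CPM for Cxcl12.

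Per kilobase of exonic parts, the most abundant of the 38 members in wild-type hearts were Lyz2, which encodes lysozyme, at 42.0 ± 13.8 CPM per kb, and the first and second complement C1q chains, C1qa at 18.8 ± 5.08 and C1qb at 17.9 ± 5.79 CPM per kb (SD, n = 3). C1qa and C1qb did not differ beyond their spread. Cxcl12, a chemokine made mainly by stromal and vascular cells, followed on this scale at 9.32 ± 1.63 CPM per kb, beside H2-Eb1 at 9.32 ± 3.05 CPM per kb. The added bases weigh more on H2-Eb1, with 15 parts in 1944 exonic bases, than on Cxcl12, with 11 parts in 8176. The place of Cxcl12 among the members thus rests on this scale. At the other end were Cd8a, the co-receptor of cytotoxic T cells, at 0.00806 ± 0.00748 CPM per kb and the T cell receptor chain Cd3e at 0.0116 ± 0.00232 CPM per kb. Low levels were not limited to lymphocyte genes, since Itgax, an integrin of dendritic cells, was at 0.0864 ± 0.0442 CPM per kb. Cd4 was at 0.105 ± 0.0134 CPM per kb. Itgax has 37 parts and Cd4 18, so the added bases lower Itgax more. Without division by length, Itgax was at 0.89 ± 0.45 CPM and Cd4 at 0.71 ± 0.090 CPM in wild-type hearts.

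Among the general markers, all 6 counted members had a lower mean estimate in homozygous than in wild-type hearts, and 0 of 6 were called. Their middle log2 fold change was −0.21, against −0.003 over all genes. For Csf1r, Cd68 and Lyz2 only wild-type library 1 lay above the homozygous values, as given below. Ptprc encodes CD45, the phosphatase on the surface of all leukocytes. It was at 7.15, 6.29 and 5.24 CPM in wild-type, 5.24, 6.14 and 5.70 CPM in heterozygous and 4.96, 5.37 and 4.33 CPM in homozygous libraries. The third wild-type library lay below the highest homozygous one, so these groups overlapped. For homozygous against wild-type hearts the log2 fold change was −0.35 ± 0.14 (SE; 95% interval −0.65 to −0.05; adjusted p = 0.164, edgeR). Adgre1 encodes F4/80, the classical macrophage surface receptor. It was at 10.6, 10.2 and 5.78 CPM in wild-type, 6.87, 7.59 and 6.67 CPM in heterozygous and 5.53, 7.03 and 5.78 CPM in homozygous libraries. Wild-type libraries 1 and 2 stood above all others, while wild-type library 3 was level with the homozygous group. This gave a log2 fold change of −0.53 ± 0.20 (SE; 95% interval −0.97 to −0.09; adjusted p = 0.147, edgeR). Leaving out wild-type library 3 gave −0.76 (adjusted p = 0.0263), and leaving out the low-count filter gave −0.54 (adjusted p = 0.0157). Leaving out wild-type library 1 gave −0.38 (adjusted p = 0.322) and leaving out wild-type library 2 gave −0.42 (adjusted p = 0.354, edgeR).

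The remaining general markers showed smaller differences. Csf1r, the receptor for the macrophage growth factor CSF1, ranged from 28.9 to 45.6 CPM over the 9 libraries and was highest in wild-type library 1. Cd68, a lysosomal protein of phagocytes, ranged from 4.75 to 8.76 CPM, and Lyz2 from 54.7 to 107 CPM, both also highest there. Wild-type libraries 2 and 3 were at 31.66 and 31.25 CPM for Csf1r, against 28.9 to 34.7 CPM in homozygous libraries. For Cd68 they were at 5.40 and 4.92 CPM, against 4.75 to 6.65 CPM. For Lyz2 they were at 78.0 and 54.7 CPM, against 59.8 to 84.4 CPM. Cx3cr1, the fractalkine receptor, ranged from 0.712 to 1.19 CPM. Their log2 fold changes in homozygous hearts lay between −0.21 and −0.12, with adjusted p from 0.457 to 0.837 (edgeR). The joined locus of Itgam, which encodes the integrin chain CD11b, gave −0.32 ± 0.19 (SE, adjusted p = 0.347, edgeR).

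In the resident macrophage class, 0 of 9 members were called, and 7 of the 9 had log2 fold changes below 0 in homozygous against wild-type hearts. Of these, C1qc was nearest 0, at −0.02. For Timd4, Lyve1, Folr2 and C1qc only wild-type library 1 lay above the homozygous values, as given below. F13a1 encodes the A chain of coagulation factor XIII, made by tissue macrophages and platelets. It was at 31.2, 22.2 and 21.7 CPM in wild-type, 19.7, 22.4 and 24.4 CPM in heterozygous and 15.7, 18.1 and 20.8 CPM in homozygous libraries. Every homozygous library lay below every wild-type library, and the heterozygous ones overlapped both groups. The log2 fold change was −0.46 ± 0.15 (SE; 95% interval −0.80 to −0.12; adjusted p = 0.113, edgeR). Mrc1 encodes the mannose receptor CD206. It was at 28.3, 19.2 and 19.5 CPM in wild-type, 15.5, 22.7 and 24.6 CPM in heterozygous and 14.4, 17.6 and 18.4 CPM in homozygous libraries. The homozygous libraries again lay below all wild-type ones, by a margin of under 1 CPM between the nearest pair. Its log2 fold change was −0.41 ± 0.19 (SE; 95% interval −0.83 to 0.01; adjusted p = 0.229, edgeR). F13a1 and Mrc1 were the 2 of 38 members whose homozygous and wild-type values did not overlap, beside 30.5% of all tested genes. Without the low-count filter both passed the threshold (F13a1 adjusted p = 0.00957, Mrc1 adjusted p = 0.0383, edgeR). Their estimates hardly moved, to −0.46 and −0.42, while calls over all genes went from 969 to 2384. Neither gene was near the filter, with 4867 to 9684 reads for F13a1 and 4454 to 8793 for Mrc1 in a library. Both estimates leaned on wild-type library 1: without it F13a1 gave −0.27 (adjusted p = 0.271) and Mrc1 −0.21 (adjusted p = 0.537, edgeR).

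Of the other resident macrophage genes, Cd163, the haemoglobin scavenger receptor, had a log2 fold change of −0.31 ± 0.16 (SE, adjusted p = 0.281, edgeR) in homozygous hearts. Timd4, a receptor for phosphatidylserine on dying cells, gave −0.26 ± 0.25, Lyve1, a hyaluronan receptor, −0.20 ± 0.21, and Folr2, a folate receptor, −0.18 ± 0.18 (log2, SE). Lyve1 is also made by lymphatic endothelium. The 3 C1q chains, which form the first component of the classical complement pathway, gave 0.00 ± 0.21 for C1qa, 0.00 ± 0.26 for C1qb and −0.02 ± 0.25 for C1qc. The C1q intervals ran from −0.57 to 0.57 on the log2 scale. For Timd4, Lyve1, Folr2 and C1qc, wild-type libraries 2 and 3 lay within the homozygous range or below it. Folr2, for example, was at 11.7, 7.90 and 6.81 CPM in wild-type libraries, against 7.21 to 8.73 CPM in homozygous libraries. In heterozygous hearts all 9 members of the class lay within −0.18 and 0.19 of wild-type on the log2 scale.

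Among genes of recruited cells, 0 of 8 were called. Ccr2, the receptor that draws monocytes to Ccl2, was at 1.19, 1.40 and 0.806 CPM in wild-type, 0.961, 1.26 and 1.28 CPM in heterozygous and 0.758, 0.872 and 0.806 CPM in homozygous libraries. All homozygous values lay below all heterozygous ones, which held for this 1 of 38 members beside 17.6% of all genes, and wild-type library 3 lay among the homozygous values. The log2 fold change, homozygous against heterozygous, was −0.53 ± 0.22 (SE; 95% interval −1.02 to −0.03; adjusted p = 0.320, edgeR). Against wild-type it was −0.48 ± 0.22 (SE, adjusted p = 0.233, edgeR). Lgals3, which encodes galectin-3, a product of activated macrophages, had a log2 difference of −0.70 ± 0.31 (SE; adjusted p = 0.345, edgeR) between homozygous and heterozygous hearts. Without the low-count filter this difference was again −0.70, with an adjusted p of 0.0322 (edgeR), while calls over all genes went from 209 to 995. Its levels ran from 2.30 to 4.52 CPM in wild-type, 2.62 to 6.22 CPM in heterozygous and 2.33 to 3.47 CPM in homozygous libraries, so the genotypes overlapped.

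S100a8, S100a9 and Gpnmb each had 1 library far above the others. S100a8, a calcium-binding protein of neutrophils, was at 1.25 CPM in homozygous library 2 and at 0.118 to 0.435 CPM in the other 8. Its partner S100a9 was at 1.90 CPM in the same library and at 0.0430 to 0.647 CPM elsewhere. Their log2 fold changes in homozygous hearts were 0.92 ± 0.69 and 1.19 ± 0.94 (SE), with adjusted p of 0.471 and 0.494 (edgeR). Gpnmb, a glycoprotein of lipid-laden and lesion macrophages, was at 4.18 CPM in wild-type library 1 and at 1.06 to 2.17 CPM in the others. Its log2 fold change was −0.88 ± 0.41 (SE, adjusted p = 0.228, edgeR), and −0.89 with an adjusted p of 0.0184 when no low-count filter was used. Trem2, a lipid-sensing receptor of lesion macrophages, gave 0.21 ± 0.29, and Itgax, the CD11c chain, −0.67 ± 0.44 (log2, SE). The signs thus differed among genes of the same class.

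Ly6c2 encodes the Ly6C antigen of blood monocytes. It was at 9.02, 16.0 and 13.3 CPM in wild-type, 8.23, 7.05 and 10.1 CPM in heterozygous and 13.6, 10.7 and 9.77 CPM in homozygous libraries. Wild-type library 1 lay within the heterozygous values. The log2 fold change, heterozygous against wild-type, was −0.59 ± 0.21 (SE; 95% interval −1.05 to −0.13; adjusted p = 1.00, edgeR). These counts are uncertain. Exonic parts 4 and 6 held 69.8 to 88.7% of the reads of the gene, and part 6 had 2865 reads in wild-type library 2 and 2966 in homozygous library 1 against 408 to 611 in the other 7 libraries. The other 9 parts summed to 566 to 667 reads in wild-type, 535 to 689 in heterozygous and 698 to 834 in homozygous libraries. On those parts the heterozygous and wild-type libraries overlapped, with the lowest value in heterozygous library 3 and the highest of both groups in heterozygous library 2. The near-identical neighbour Ly6c1, which endothelium expresses, stood at 150 to 254 CPM, and how reads shared by both genes were assigned is not given in the sources used here.

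**Figure D2:**
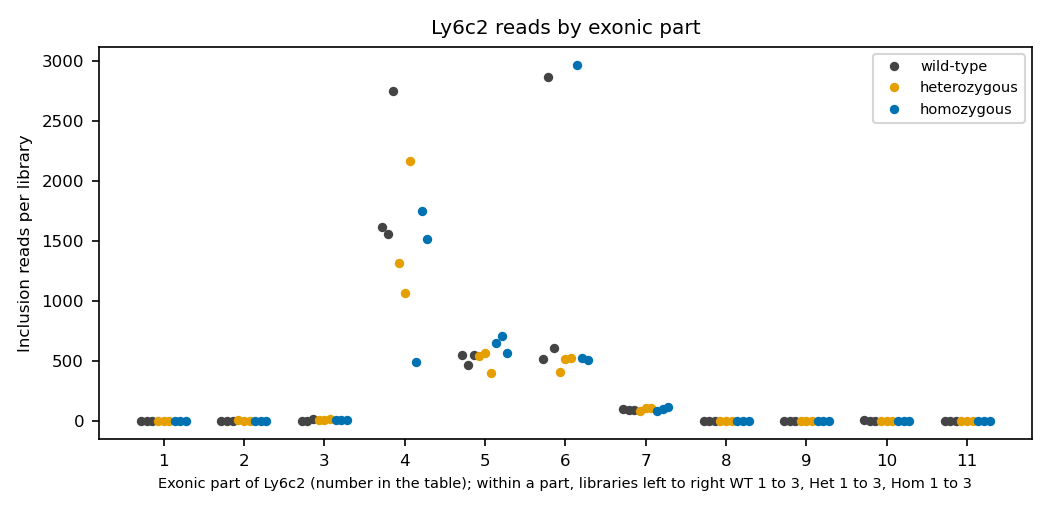
Inclusion reads in each of the 11 exonic parts of Ly6c2 (horizontal axis) in each library (points, coloured by genotype, in the same order within each part). Part 4 varies from 492 to 2751 reads, and in part 6 wild-type library 2 and homozygous library 1 stand at 2865 and 2966 reads while the other 7 lie between 408 and 611.

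Antigen presentation genes differed more between libraries than between genotypes. H2-Aa, the alpha chain of the class II molecule I-A, was at 51.3, 29.5 and 26.3 CPM in wild-type, 37.7, 62.2 and 27.0 CPM in heterozygous and 34.4, 61.4 and 35.5 CPM in homozygous libraries. One library in each group was high: wild-type 1, heterozygous 2 and homozygous 2. H2-Eb1, a class II beta chain, was at 53.3, 33.8 and 29.4 CPM in wild-type, 41.6, 71.7 and 28.6 CPM in heterozygous and 39.0, 68.3 and 38.6 CPM in homozygous libraries, and had the same 3 libraries highest. The log2 fold changes in homozygous hearts were 0.30 ± 0.34 for H2-Aa (adjusted p = 0.652) and 0.33 ± 0.34 for H2-Eb1 (adjusted p = 0.615, SE, edgeR). H2-Ab1, the beta chain of I-A, gave 0.27 ± 0.35 (SE, adjusted p = 0.697, edgeR). Without homozygous library 2 the estimates were −0.023 for H2-Aa and 0.0063 for H2-Eb1, and without wild-type library 1 they were 0.65 and 0.62. The joined locus of Cd74, which encodes the invariant chain that guides class II molecules to the endosome, ran from 81.4 to 184 CPM with the same 3 libraries highest, and gave 0.33 ± 0.31 (SE, adjusted p = 0.577, edgeR). H2-Ea, the partner chain of H2-Eb1, was nearly absent, at 0 to 0.0172 CPM.

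The labels number the libraries in a lower and an upper range, and all 3 homozygous libraries but 1 wild-type library are in the lower one. With this range as a term in the model, the estimates for homozygous against wild-type were −0.23 for H2-Aa (adjusted p = 0.761) and −0.21 for H2-Eb1 (adjusted p = 0.80, edgeR), the opposite sign. F13a1 then gave −0.55 (adjusted p = 0.197), Adgre1 −0.70 (adjusted p = 0.197) and Ptprc −0.45 (adjusted p = 0.245, edgeR), the same sign as before. What the number range stands for is not given in the sources used here, and with 1 wild-type library in the lower range no test within it was made.

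The same 3 libraries, wild-type 1, heterozygous 2 and homozygous 2, were the highest 3 of the 9 for 10 of the 38 members: Cd68, Lyz2, C1qa, C1qb, C1qc, H2-Aa, H2-Ab1, H2-Eb1, Ccl6 and Ccl9. Both these 10 members and the 3 libraries were picked out after the members' values were seen. The lower number range holds all 3 of these libraries, and also heterozygous 1, homozygous 1 and homozygous 3. The part of the number range in the pattern was not tested. Over all tested genes, wild-type 1, heterozygous 2 and homozygous 2 were the highest 3 for 895 of 22049 (4.06%). Since the 3 libraries were chosen from the members' own values, this share does not test the pattern. The pattern is a description of these libraries, and the part of a shared cell type in it was not tested. Other macrophage or leukocyte members, such as Ptprc, Adgre1, Csf1r, Lyve1, Mrc1 and F13a1, did not have these 3 highest. Among the 10 members that did, C1qb was at 37.4, 38.8 and 35.6 CPM in those 3 libraries and at 20.4 to 24.6 CPM in the other 6. The summed interferon response list was also highest in these 3, at 166 to 186 CPM against 120 to 145 CPM in the other 6. So was the NF-kB and inflammasome list, at 189 to 210.5 CPM against 144 to 180 CPM. The leukocyte adhesion list was at 66.4 to 67.5 CPM against 44.0 to 59.4 CPM. The further macrophage and mast cell lists had the same 3 highest by thin margins. Heterozygous 2 was at 531 and 5.209 CPM in them, and the next library at 524 and 5.204 CPM. The neutrophil, lymphocyte and natural killer cell, and chemokine and receptor lists did not have these 3 highest. None of the 10 marker lists of other heart cells had the same 3 libraries highest. The 5 erythroid genes summed to 8864 CPM in wild-type 1 and 9054 CPM in homozygous 2, the highest of the 9, but to 6318 CPM in heterozygous 2, the lowest of its group. Over the groups the erythroid sum ran from 3432 to 8864 CPM in wild-type, 6318 to 7531 CPM in heterozygous and 5641 to 9054 CPM in homozygous libraries, with no gene of the list at 0. The part of blood left in the heart in these values was not tested.

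**Figure D3:**
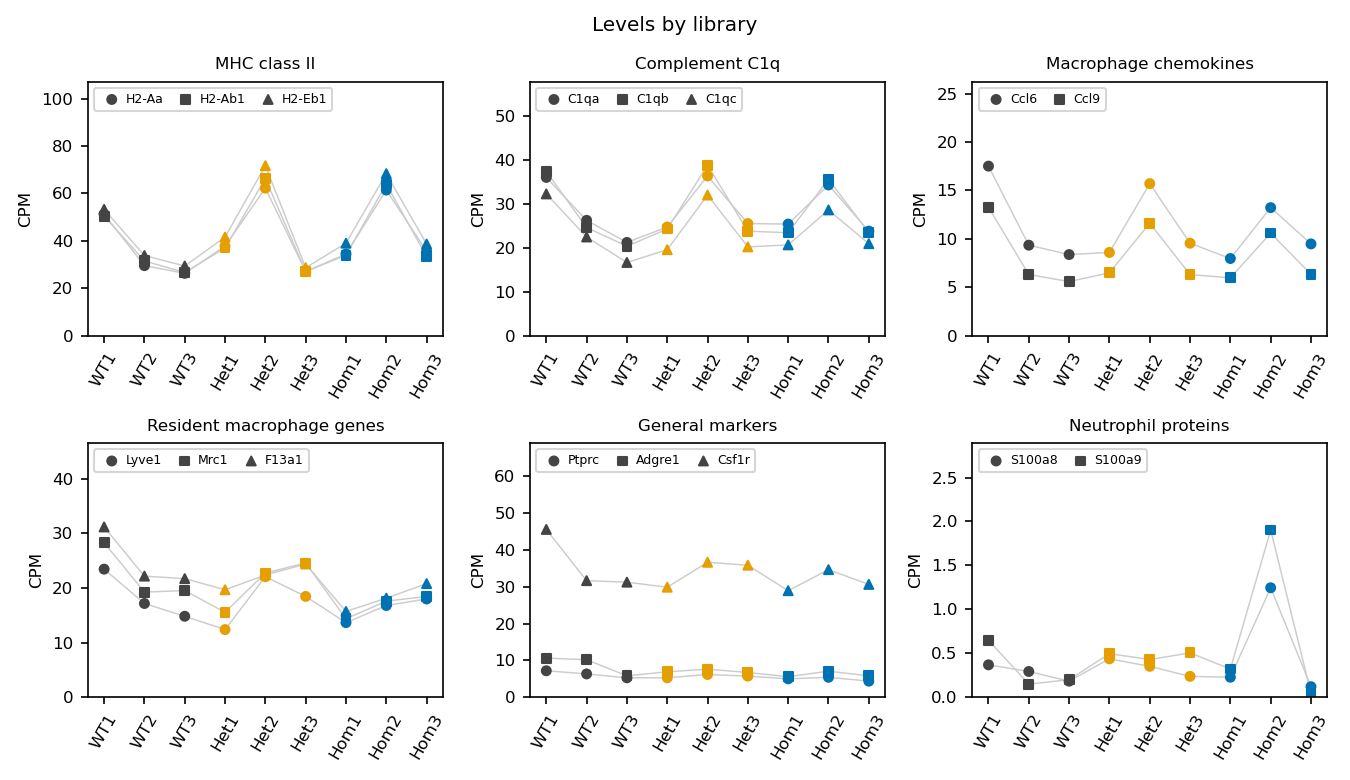
CPM (vertical axes, linear from 0) of 16 members in the 9 libraries (WT, wild-type; Het, heterozygous; Hom, homozygous), with 1 symbol for each gene, colour for the genotype and grey lines to join the points of a gene. MHC class II, C1q, Ccl6 and Ccl9 share their high values in WT1, Het2 and Hom2, S100a8 and S100a9 are high in Hom2, and Lyve1, Mrc1 and F13a1 are highest in WT1.

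Of the 5 lymphocyte genes 0 were called, and 3 of them had a library under 10 reads. Cd4, carried by helper T cells and in part by myeloid cells, was at 0.795, 0.707 and 0.616 CPM in wild-type, 0.581, 0.638 and 0.484 CPM in heterozygous and 0.293, 0.617 and 0.505 CPM in homozygous libraries. Homozygous library 2 lay at the level of the lowest wild-type library. Its log2 fold change in homozygous hearts was −0.58 ± 0.28 (SE; 95% interval −1.19 to 0.03; adjusted p = 0.240, edgeR), −0.32 without homozygous library 1, and 0.14 when only the longest exonic part was counted. Cd79a, a signalling chain of the B cell receptor, was at 0.200, 0.237 and 0.316 CPM in wild-type, 0.270, 0.412 and 0.387 CPM in heterozygous and 0.345, 0.490 and 0.280 CPM in homozygous libraries. The groups overlapped, and its log2 fold change was 0.57 ± 0.31 (SE; 95% interval −0.12 to 1.25; adjusted p = 0.308, edgeR), or 0.33 without homozygous library 2. Cd3e had 3 to 60 reads, Cd8a 0 to 47 and Ms4a1, the B cell antigen CD20, 2 to 88 reads in a library. Cd3e was the 1 member whose heterozygous and wild-type values did not overlap, beside 8.26% of all genes. It had 27, 21 and 18 reads in wild-type against 3, 18 and 7 in heterozygous libraries, and its log2 interval ran from −3.19 to 0.68.

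Levels of the 7 chemokines and cytokines ranged widely, and 0 were called. Cxcl12 was at 73.4 to 114 CPM, with log2 differences from −0.18 to 0.07 over the 3 comparisons. Ccl6 and Ccl9, chemokines of macrophages, were at 7.96 to 17.5 and 5.58 to 13.3 CPM. Ccl2, which recruits monocytes, was at 2.70, 0.576 and 0.665 CPM in wild-type, 1.02, 1.74 and 1.12 CPM in heterozygous and 4.56, 1.13 and 1.00 CPM in homozygous libraries. Homozygous library 1 and wild-type library 1 were the high ones, and the other homozygous values lay within the heterozygous range or just under it. The log2 fold change, homozygous against heterozygous, was 0.79 ± 0.66 (SE; 95% interval −0.66 to 2.24; adjusted p = 0.629, edgeR), and −0.28 without homozygous library 1.

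Il6, Tnf and Il1b, the classical inflammatory cytokines, had few reads. Il6 had 55, 0 and 16 reads in wild-type, 1, 9 and 6 in heterozygous and 25, 16 and 0 in homozygous libraries. The groups overlapped, and the log2 fold change in heterozygous hearts was −2.15 ± 1.41 (SE; 95% interval −5.25 to 0.94; adjusted p = 1.00, edgeR), and −0.62 without wild-type library 1. Tnf had 8 to 82 reads in a library, and Il1b was at 0.194 to 0.683 CPM, with a log2 difference of −0.00 ± 0.49 (SE) between homozygous and wild-type hearts. In all, 5 members had a library under 10 reads: Cd3e, Cd8a, Ms4a1, Il6 and Tnf.

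**Figure D4:**
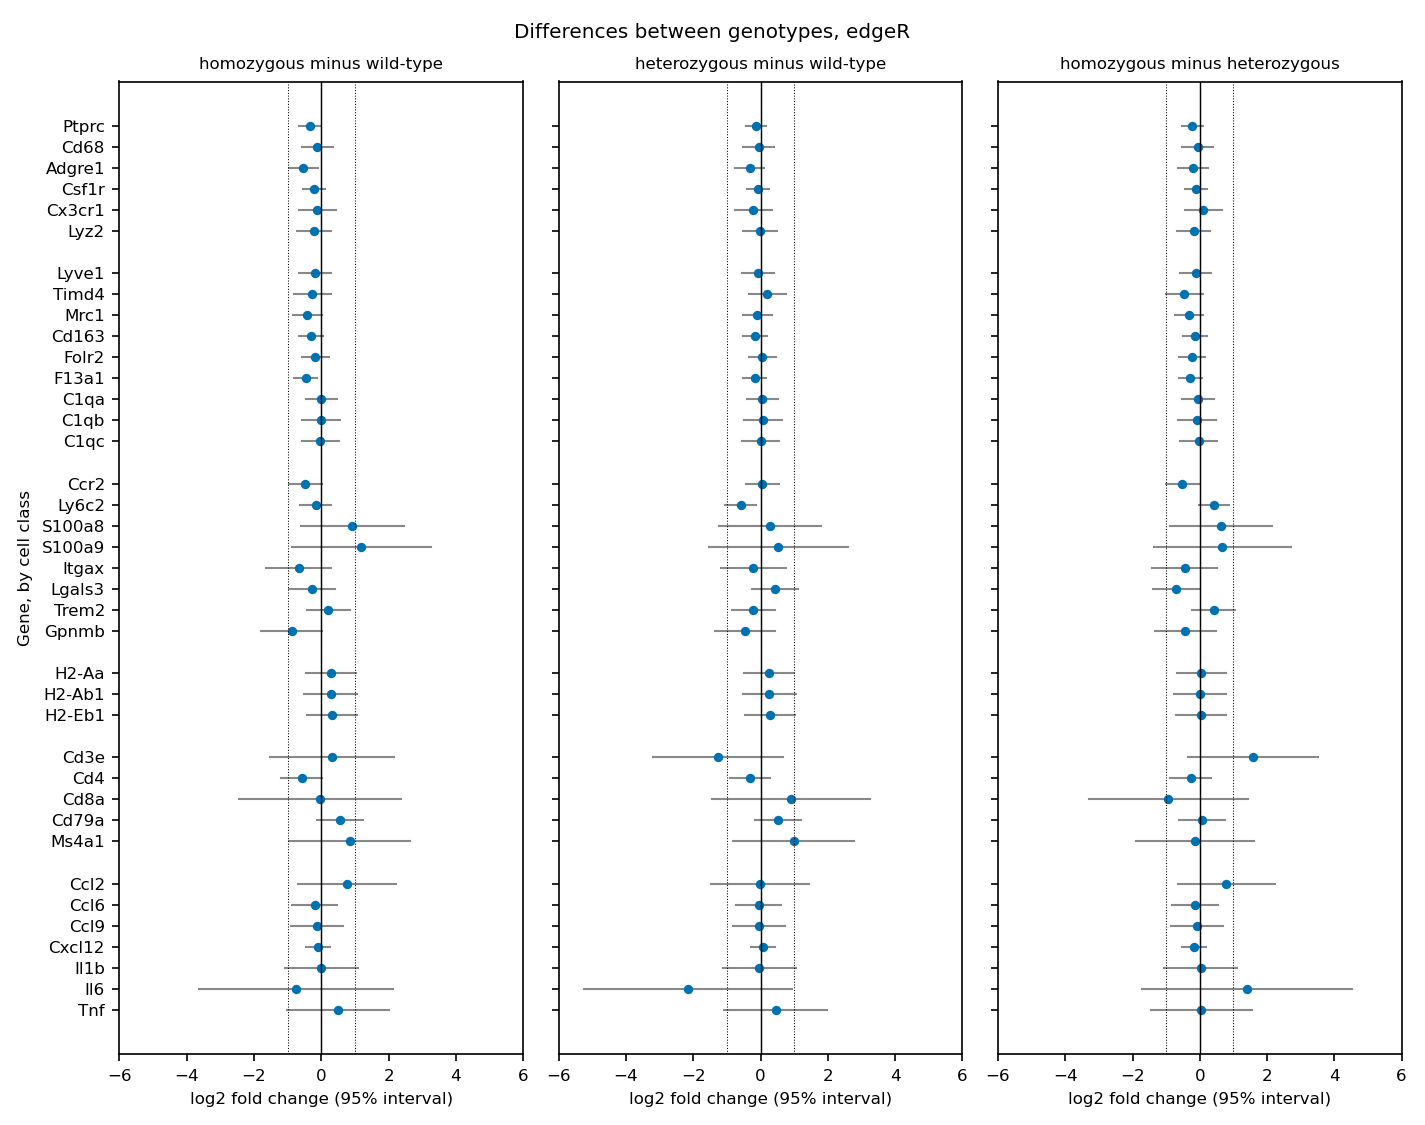
Log2 fold change (horizontal axis) of each of the 38 members in the 3 comparisons, with points for the edgeR estimates, lines for the 95% intervals and dotted lines at 2-fold. In the homozygous against wild-type panel the intervals of Adgre1, F13a1 and Ptprc lie below 0 and that of Gpnmb reaches −1.78, while the intervals of Il6, Cd8a, Cd3e and S100a9 reach beyond 2-fold on both sides in at least 1 comparison.

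Further genes of these pathways, 132 in 9 lists, gave the same count. Of these, 123 were tested and 0 were called in each of the 3 comparisons. Over all tested genes the shares called were 4.39% (homozygous against wild-type), 0.0% (heterozygous against wild-type) and 0.948% (homozygous against heterozygous). Tlr4, the receptor for bacterial lipopolysaccharide, came nearest, with a log2 fold change of 0.66 ± 0.17 (SE, adjusted p = 0.0575, edgeR) in homozygous hearts, where it was at 9.61 to 16.7 CPM against 7.29 to 8.41 CPM in wild-type. Il6st, the shared receptor chain gp130 of the interleukin-6 family, followed with −0.45 ± 0.13 (SE, adjusted p = 0.0776, edgeR). Among 24 tested further macrophage genes the middle log2 fold change was −0.11, and among 14 interferon response genes it was 0.08, against −0.003 over all genes. Among 14 genes of class II machinery and class I presentation, 12 had values above 0 with a middle log2 fold change of 0.32. Their sum was 963 CPM in heterozygous 2, 961 CPM in homozygous 2 and 700.1 CPM in wild-type 1, the 3 libraries named above, and 501 to 664 CPM in the other 6.

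Marker lists of other heart cells held 2 called genes among 47 tested, both in homozygous against wild-type hearts, beside 4.39% of all tested genes. Myl2, the ventricular myosin light chain, rose by 0.79 ± 0.19 (log2, SE; adjusted p = 0.0437, edgeR). Prox1 changed by −0.84 ± 0.17 (log2, SE; adjusted p = 0.0213, edgeR), from 17.6 to 23.7 CPM in wild-type to 10.1 to 13.4 CPM in homozygous libraries. Prox1 specifies lymphatic endothelium and is also made by heart muscle cells, and the other 5 genes of the lymphatic list were not called. The summed lymphatic list was at 73.6 to 84.8 CPM in wild-type and 76.8 to 83.3 CPM in homozygous libraries. The cardiomyocyte list summed to 52840 to 63210 CPM in wild-type and 64800 to 73110 CPM in homozygous libraries. No gene of the platelet list was called. Its sum was at 2.41 to 3.34 CPM in wild-type, 3.84 to 5.19 CPM in heterozygous and 3.51 to 7.84 CPM in homozygous libraries. All wild-type libraries thus lay below all others, by a small margin. Among single tested genes, groups did not overlap for 30.5% in homozygous and 8.26% in heterozygous against wild-type hearts. The 3 tested platelet genes had log2 fold changes of 0.68 to 1.09 in homozygous against wild-type hearts. Itga2b, the integrin chain CD41, was at 0.96 ± 0.26 (SE, adjusted p = 0.0620, edgeR). Platelets also make F13a1, whose values ran the other way; the part of platelets in them was not tested. CPM values are shares of all reads, and the part of muscle transcripts in the members' values was not tested.

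Use of exonic parts in the members was compared by percent spliced in (PSI, given as a fraction), the share of transcripts that include a part. Coverage allowed a test for 54 parts of 17 members. With limma, calls needed both an adjusted p under 0.05 and a shift in PSI of 0.1 or more. In homozygous against wild-type hearts 0 of 54 parts were called, beside 0.413% of 55648 tested parts. In heterozygous against wild-type hearts 0 were called, beside 0.0755%, and in homozygous against heterozygous hearts 0, beside 0.264%. At an unadjusted p under 0.05 there were 5, 1 and 2 parts (9.26%, 1.85% and 3.70%), beside 7.69%, 4.04% and 6.93% of all tested parts. The smallest p belonged to part 7 of Cxcl12 (chr6:117152031-117153046, GRCm39). Its PSI was 0.0588, 0.0808 and 0.0828 in wild-type, 0.0657, 0.0985 and 0.0950 in heterozygous and 0.129, 0.175 and 0.114 in homozygous libraries. The homozygous values were the 3 highest, and the difference from wild-type was 0.0654 ± 0.0195 (SE; adjusted p = 0.424, limma). Part 34 of Ptprc (chr1:138043381-138044179) had PSI of 0.319, 0.296 and 0.260 in wild-type, 0.470, 0.310 and 0.333 in heterozygous and 0.681, 0.803 and 0.362 in homozygous libraries. The homozygous values lay above all wild-type values but rested on 20 to 85 reads in a library over the 9. The difference from wild-type was 0.323 ± 0.103 (SE; adjusted p = 0.470, limma), and without homozygous library 3 it was 0.450 with an adjusted p of 0.0450.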

How the data were processed

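Total RNA of whole hearts was sequenced from stranded libraries (NEBNext Ultra II Directional) as read pairs of 150 bases, per the labels' protocols. The authors deposited, for each of 480017 exonic parts on GRCm39, inclusion and exclusion counts, which are whole read counts, and PSI, a fraction. Recomputing PSI from the deposited counts, with 148 bases added to each part length, left a largest gap of 5e-07. The tools cutadapt 1.8 and Salmon 1.2.1 are named with no role, per the submitters' processing notes; the counter of the parts and its strand setting are not given in the sources used here.

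Inclusion counts were summed per gene identifier, so a read that spans several parts may count more than once. A quasi-likelihood test (edgeR 4.0.16 in R 4.3.3, TMM scaling, filterByExpr) was fitted to all 9 libraries and 22049 genes with genotype as the only term; DESeq2 1.42.0 was an alternative. PSI was tested with limma 3.58.1 on parts with at least 10 reads in every library, whose PSI reached 0.05 in at least 1 library and was no higher than 0.95 in at least 1. Both scripts were tested on simulated data. Members and gene lists were chosen with earlier results of these data known. Values are printed in full for the 2 members of each class with the smallest p, and for others where a count or a changed call needs them. Motifs were searched on both strands in RefSeq promoters of GRCm38.p6.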

Additional observations from a re-analysis of the deposited data

How the results depend on the processing

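Of 224 recomputed log2 fold changes of the 12 members described by class, 214 kept their direction and their side of the threshold. Both counts include 1 alternative for each member, parts shared with overlapping genes added, that repeats the main value by construction. The number of members called in homozygous against wild-type hearts was 4 instead of 0 with no low-count filter (Adgre1, Mrc1, Gpnmb and F13a1, when 2384 genes were called over the table) and lay between 0 and 1 when 1 library was left out, the 1 being Adgre1 without wild-type replicate 3. Between homozygous and heterozygous hearts it was 1 with no low-count filter (Lgals3), and 0 without any single library, as it was for heterozygous against wild-type. For exonic parts in homozygous against wild-type hearts it lay between 0 and 1 when 1 library was left out, the 1 being Ptprc part 34 without homozygous replicate 3. The direction turned in 6 cases: H2-Eb1 (−0.21) and H2-Aa (−0.23) with the library number range as a term, Cd4 (0.14) and H2-Aa (−0.055) with only the longest part of each gene, Ccl2 without homozygous replicate 1 (−0.28, in a leave-one-out range up to 1.14) and H2-Aa without homozygous replicate 2 (−0.023, in a range up to 0.65). The cause of these changes was not tested. With the replicate number as a block, 0 members and 0 parts were called in each comparison. Calls over all genes in homozygous against wild-type hearts then went from 969 to 2207. Same-numbered libraries correlated from −0.26 to 0.63 over 9 pairs, 6 of them above 0.1. These values do not decide whether the numbers pair the libraries, and the labels state no pairing. With only the longest part, 7 further estimates kept their direction but moved by over 1.5 times, to −0.86 for Ptprc, −1.65 for Ccr2, −0.046 for Ly6c2, −0.18 for F13a1, −0.068 for Mrc1, −0.30 for Adgre1 and 0.79 for H2-Eb1. Ccl2 moved to 0.28 with the block and 0.33 with the number range. Ly6c2 had a value under 18 alternatives, with none for parts of high PSI alone, and Il6 under 16. Adding parts shared with overlapping genes could not alter the 12 members, whose identifiers are not joined. Few reads stood behind Cd3e, Cd8a, Ms4a1, Il6 and Tnf, each with a library under 10 reads.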
